A study of Mus musculus with 7 samples.

Results

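The 10 genes described here encode the nuclear receptors and coactivators that set the capacity of the heart to burn fuel: the estrogen-related receptors Esrra, Esrrb and Esrrg, the peroxisome proliferator-activated receptors Ppara, Ppard and Pparg, the retinoid X receptor Rxrg, the PGC-1 coactivators Ppargc1a and Ppargc1b, and the corepressor Nrip1. They were chosen by name, as every non-control probe that the array design assigns to one of these genes, which gave 22 of the 56605 distinct probes and 10 of the 22971 named genes tested. RNA from hearts of adult female mice was hybridised singly, with Cy3 dye, to Agilent mouse gene expression arrays. The Wild Type group (3 arrays, Wild Type_181, Wild Type_183 and Wild Type_189) is labelled heart NTg and the Mutant group (4 arrays, Mutant_175, Mutant_182, Mutant_187 and Mutant_188) is a double knockout of Brg1 and Brm, the alternative ATPases of the SWI/SNF chromatin remodelling complex. The mutant mice lacked Brm in every cell and lost Brg1 when tamoxifen activated a Cre-ERT recombinase driven by an MHC promoter, which is active in heart muscle cells. The Wild Type mice also received tamoxifen, and the sources used here do not give their Brm genotype or say more of their transgene than NTg. The labels call the material cardiomyocytes, whereas the RNA was prepared with a kit for animal tissue. Nothing in the labels says that arrays of 1 group came from separate animals, so p-values set the group difference against the spread between these arrays.

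In heart muscle, ERR and PPAR proteins bind DNA at the genes of fatty acid oxidation, the citric acid cycle and the respiratory chain. ERRs bind as monomers or dimers, and PPARs bind as partners of a retinoid X receptor. PGC-1 coactivators have no DNA contact of their own and are recruited by both receptor families, to which they bring the transcription machinery, while Nrip1 (RIP140) is recruited by the same receptors and represses the same genes. Some of these genes are themselves targets, since Ppara and Esrra are known targets of ERR and PGC-1.

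The DNA element these receptors share is the half-site AGGTCA. Start-site windows of 300 bases (250 before and 50 after the annotated start) were taken from RefSeq, build GRCm38.p6, which held 17 windows for 9 of the 10 genes. The bases before the start are shown for the 3 called genes with the smallest p that had a window and for the coactivator Ppargc1a, 5′ to 3′ on the strand of the gene, with capitals marking AGGTCA on either strand. Rxrg had a first and a second start, and the one shown is the one with a match, while the first had none.
Rxrg, second start, chr1:167618015-167618264, plus strand: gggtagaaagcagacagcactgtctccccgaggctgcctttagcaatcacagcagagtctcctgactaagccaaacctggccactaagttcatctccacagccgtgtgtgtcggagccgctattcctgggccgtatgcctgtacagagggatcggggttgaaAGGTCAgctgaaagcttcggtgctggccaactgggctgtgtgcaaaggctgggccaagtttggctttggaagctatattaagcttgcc
Esrra, chr19:6921809-6922058, minus strand: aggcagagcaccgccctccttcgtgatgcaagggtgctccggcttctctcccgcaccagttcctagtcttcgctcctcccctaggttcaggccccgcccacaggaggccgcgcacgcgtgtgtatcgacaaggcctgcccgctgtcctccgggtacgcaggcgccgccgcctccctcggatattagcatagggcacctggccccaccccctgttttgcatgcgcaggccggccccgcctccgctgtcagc
Ppara, chr15:85735526-85735775, plus strand: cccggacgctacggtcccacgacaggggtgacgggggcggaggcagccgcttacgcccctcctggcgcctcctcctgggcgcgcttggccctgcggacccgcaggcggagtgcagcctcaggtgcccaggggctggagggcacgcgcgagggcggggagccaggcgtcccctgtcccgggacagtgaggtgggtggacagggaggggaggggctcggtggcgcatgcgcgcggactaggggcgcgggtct
Ppargc1a, chr5:51567726-51567975, minus strand: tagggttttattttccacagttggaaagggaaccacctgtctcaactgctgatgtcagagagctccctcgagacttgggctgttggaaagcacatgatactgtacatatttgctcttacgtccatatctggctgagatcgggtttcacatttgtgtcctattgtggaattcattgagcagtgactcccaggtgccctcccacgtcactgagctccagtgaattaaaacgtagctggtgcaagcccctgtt
AGGTCA, searched on both strands, lay in 3 of the 17 windows and in 16.3% of all 32851 windows of this length. The 3 windows were the second start of Rxrg, at position -88, and the first and second starts of Pparg, at positions -28 and -9. The longer ERR element TNAAGGTCA, which contains the half-site, lay in 0 of the 17 windows and in 1.28% of all windows. The direct repeat of AGGTCA with 1 base between, bound by PPAR and RXR pairs, lay in 0 and in 0.0396%, and the cyclic AMP element TGACGTCA lay in 0 and in 1.79%. These letters say nothing of sites outside the windows or of looser matches inside them.

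Values are processed signals divided by the 75th percentile of the signals on the same array, called relative signal here, so that 1 marks a probe at that percentile. Levels of different probes are not comparable. A gene was called when its adjusted p (limma, Benjamini-Hochberg over all genes tested) was under 0.05, with 1 probe per gene, the brightest on average. Between 58.1% and 63.6% of the spots on each array were well above background, and none was saturated. Of all 22971 genes, 25.8% were called lower and 16.3% higher in Mutant, and the median difference was -0.12 (log2). Scaling the arrays by 7 spike-in RNA probes moved every difference up by about 0.57, to a median over all genes of 0.44, with 7.44% called lower and 37.2% higher. All arrays lay on 1 slide with 1 scan, and the Wild Type arrays occupied one row of it and the Mutant arrays the other, so that slide row and group cannot be told apart. Smarca4, the gene of Brg1, had relative signals of 34.7, 32.8 and 34.2 in Wild Type and of 5.87, 10.3, 14.9 and 8.25 in Mutant, a log2 difference of -1.87 ± 0.29 (SE, limma adjusted p = 0.0021). Smarca2, the gene of Brm, differed by 0.08 ± 0.11 (SE, limma adjusted p = 0.59). The exons these probes read are not given here, so neither value measures a deletion as such.

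Relative to the 75th percentile of the array, 5 of the 10 genes fell in Mutant hearts, where 25.8% of all genes did: Rxrg, Ppara, Esrra, Esrrg and Ppard. Spike-in scaling put Ppard at 0.00 and still called Rxrg and Ppara, not Esrra or Esrrg. None of the 10 was called higher (16.3% of all genes), and none was higher at an unadjusted p under 0.05 in the same limma fit. In the same 5 genes every Mutant array lay below every Wild Type array, as in 31.6% of all genes, and in none did every Mutant array lie above, as in 19.6%. Groups that did not overlap were thus found in 5 of 10 members and in 51.2% of all genes. The other 5 genes, Esrrb, Pparg, Ppargc1a, Ppargc1b and Nrip1, had overlapping groups. The median difference of the 10 was -0.46, against -0.12 over all genes, and 9 of 10 were below 0. All 10 were well above background on every array. With spike-in scaling 2 of 10 were called lower, where 7.44% of all genes were, and the median was 0.10. The 5 genes with overlapping groups then stood at 0.36 for Esrrb, 0.27 for Pparg, 0.21 for Ppargc1a, 0.46 for Ppargc1b and 0.60 for Nrip1, none called, with Nrip1 alone past an unadjusted p of 0.05 in limma. In bulk RNA, fewer cells of a type and less RNA per cell cannot be told apart.

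**Figure D1:**
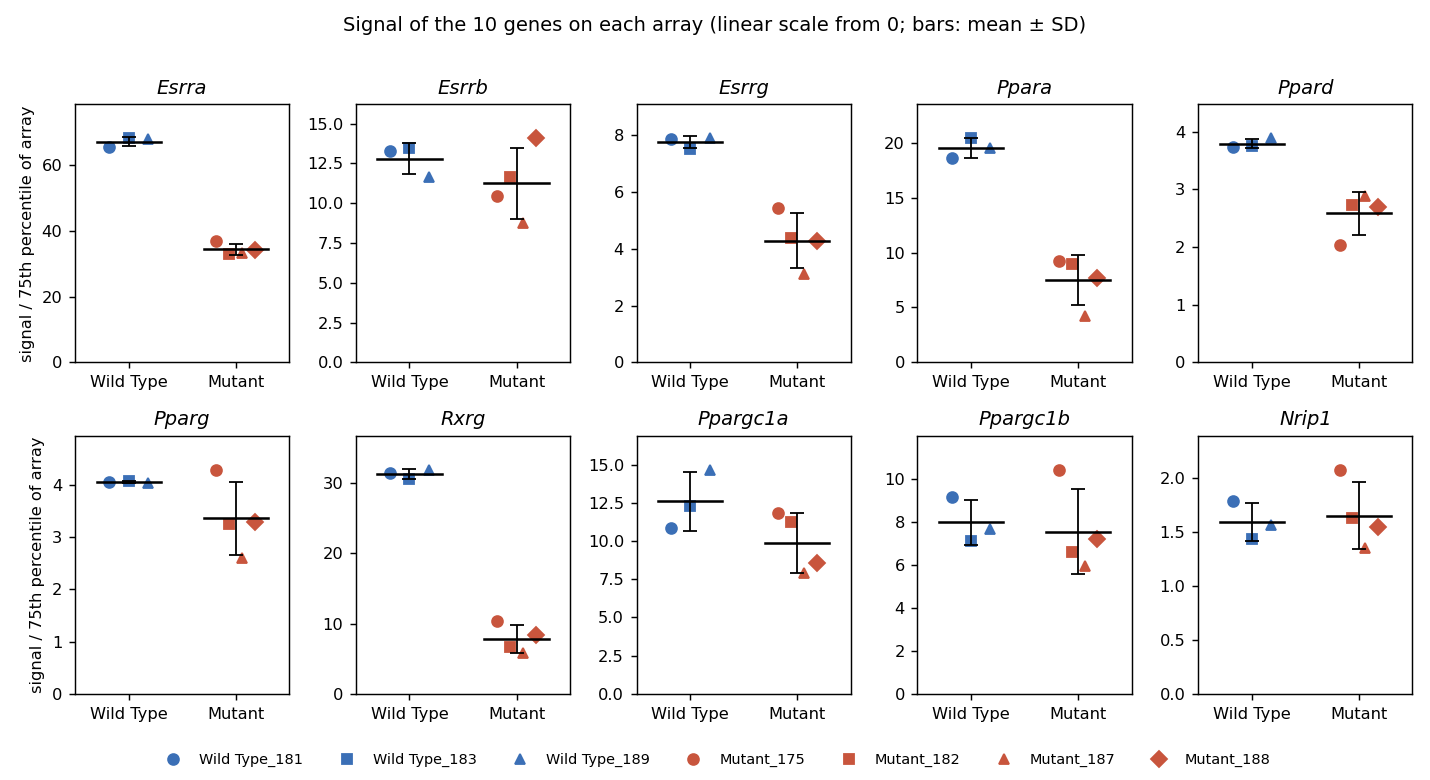
Relative signal (processed signal over the 75th percentile of the array, linear axis from 0) of the brightest probe of each of the 10 genes, with 1 point per array, symbols for single arrays, and black bars for the mean ± SD of 3 Wild Type and 4 Mutant arrays. The groups are apart for Esrra, Esrrg, Ppara, Ppard and Rxrg on this scale, where spike-in scaling puts the Ppard difference at 0.00, and they overlap for the other 5 genes.

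Among the ERR receptors, Esrra encodes ERRα, the receptor most closely tied to genes of oxidative metabolism in the adult heart. Its brightest probe, at chr19:6985503-6985562 (mm9, as the array files give it, minus strand), read relative signals of 65.4, 68.2 and 67.7 in Wild Type and of 36.9, 33.1, 33.1 and 34.2 in Mutant. All Mutant arrays lay close together and well under the Wild Type arrays. The means were 67.1 ± 1.49 (SD, n = 3) and 34.3 ± 1.78 (SD, n = 4), which is a log2 difference of -0.97 ± 0.10 (SE, 95% interval -1.20 to -0.73, limma adjusted p = 0.00036), or 1.96-fold lower. Measured against the spike-in RNA the difference was -0.40 and was not called (limma adjusted p = 0.095). A second Esrra probe, at chr19:6991170-6991229 (mm9), was dim, between 0.129 and 0.307 in Wild Type and between 0.166 and 0.240 in Mutant, and its groups overlapped (log2 difference -0.03 ± 0.29, SE, limma adjusted p = 0.95). A mean over both probes gave -0.50, which was not called (limma adjusted p = 0.055). With a mean over the probes of each gene, 4 of the 10 members and 24.3% of all genes were called lower.

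Esrrg encodes ERRγ, which acts on many of the same genes as ERRα and is enriched in oxidative muscle. Its relative signals were 7.86, 7.52 and 7.91 in Wild Type and 5.44, 4.37, 3.101 and 4.26 in Mutant, from the probe at chr1:190038683-190038742 (mm9). The Wild Type arrays differed by little, while the Mutant arrays were spread from Mutant_175 at the top to Mutant_187 at the bottom. The log2 difference was -0.88 ± 0.19 (SE, 95% interval -1.32 to -0.44, limma adjusted p = 0.0080), and it was -0.32 and not called with spike-in scaling (limma adjusted p = 0.26). A neighbouring probe, at chr1:190038192-190038251 (mm9), was also called over the kept probes, with relative signals of 3.28, 3.07 and 3.16 against 2.48, 1.75, 1.76 and 1.76 (-0.73 ± 0.16, SE, limma adjusted p = 0.0083). The remaining probe, at chr1:189617558-189617617 (mm9), was well above background on 1 Wild Type and 2 Mutant arrays and read between 0.0223 and 0.0405 throughout.

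Esrrb encodes ERRβ, known best for its part in early embryonic cells and the placenta. Its relative signals were 13.3, 13.5 and 11.7 in Wild Type and 10.4, 11.7, 8.77 and 14.1 in Mutant, from the probe at chr12:87862509-87862568 (mm9). The highest and the lowest value were both in Mutant arrays, and the difference of -0.21 ± 0.17 was not called (SE, 95% interval -0.61 to 0.20, limma adjusted p = 0.37). A second Esrrb probe was not well above background on any array.

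Among the PPAR receptors, Ppara encodes PPARα, the fatty acid receptor that drives genes of fatty acid uptake and oxidation in heart. It read 18.6, 20.4 and 19.5 in Wild Type and 9.19, 8.93, 4.25 and 7.67 in Mutant (relative signals, probe at chr15:85632110-85632169, mm9). Every Mutant array was below the lowest Wild Type array, and Mutant_187 was the lowest of all. The log2 difference was -1.44 ± 0.27 (SE, 95% interval -2.07 to -0.81, limma adjusted p = 0.0047), or 2.71-fold lower. It stayed called with spike-in scaling (-0.87, limma adjusted p = 0.030). The other Ppara probe, at chr15:85637193-85637252 (mm9), fell by 1.46 on the log2 scale (limma adjusted p = 0.0045 over the kept probes), with 9.16, 9.05 and 10.1 in Wild Type against 4.44, 4.04, 2.03 and 3.83.

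Ppard encodes PPARδ, which is present in most tissues and shares fatty acid oxidation targets with PPARα. Relative signals were 3.74, 3.75 and 3.89 in Wild Type and 2.04, 2.73, 2.88 and 2.69 in Mutant (probe at chr17:28438298-28438357, mm9). Here Mutant_175 was the lowest Mutant array. The log2 difference of -0.57 ± 0.14 was called (SE, 95% interval -0.90 to -0.23, limma adjusted p = 0.017), but it was 0.00 with spike-in scaling, and it missed the threshold without Wild Type_181, Wild Type_183 or Wild Type_189 (limma adjusted p = 0.052, 0.055 and 0.063).

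Pparg encodes PPARγ, the receptor of fat cell differentiation. The 3 Wild Type arrays read 4.05, 4.07 and 4.04, and the Mutant arrays read 4.30, 3.25, 2.61 and 3.29 (relative signals, probe at chr6:115440213-115440272, mm9). Mutant_175 was above all Wild Type arrays and the other Mutant arrays were below them. The difference of -0.29 ± 0.17 was not called (SE, 95% interval -0.69 to 0.10, limma adjusted p = 0.20). Without Mutant_175 it was -0.42 and was called (limma adjusted p = 0.029). A second Pparg probe was not well above background on any array.

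Rxrg encodes RXRγ, the retinoid X receptor found mainly in striated muscle and brain, which pairs with PPARs, thyroid hormone receptors and retinoic acid receptors. It had the largest difference of the 10 genes. Relative signals were 31.4, 30.6 and 31.9 in Wild Type and 10.4, 6.74, 5.76 and 8.35 in Mutant (probe at chr1:169569624-169569683, mm9), with a wide gap between the groups. The log2 difference was -2.04 ± 0.20 (SE, 95% interval -2.51 to -1.57, limma adjusted p = 0.00029), or 4.11-fold lower. A called drop of at least 1 on this scale was found in 9.99% of all genes. With spike-in scaling it was -1.47 and still called (limma adjusted p = 0.00065). The ubiquitous partners moved less: Rxrb differed by -0.77 ± 0.11 (SE, limma adjusted p = 0.0014), or -0.20 and not called with spike-in scaling (limma adjusted p = 0.37), and Rxra by -0.45 ± 0.10 (SE, limma adjusted p = 0.0079), which turned to 0.11 with spike-in scaling, both named here after their values were seen.

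The PGC-1 coactivators showed no called change. Ppargc1a encodes PGC-1α, the coactivator induced by cold, exercise and fasting. One of its probes reads the end of the coding sequence, at chr5:51849419-51849478 (mm9, minus strand), and is shown 5′ to 3′ with capitals marking the stop codon that follows 19 in-frame codons.
Ppargc1a coding-end probe: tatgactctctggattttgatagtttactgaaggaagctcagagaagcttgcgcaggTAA
This probe read 3.13, 3.59 and 4.37 in Wild Type and 3.34, 3.14, 2.01 and 2.45 in Mutant (relative signals). The brighter probe, at chr5:51848928-51848987 (mm9), read 10.8, 12.3 and 14.7 in Wild Type and 11.9, 11.3, 7.88 and 8.56 in Mutant. In both probes Mutant_175 and Mutant_182 lay within the Wild Type range, and Mutant_187 and Mutant_188 lay below it. The brighter probe differed by -0.36 ± 0.19 (SE, 95% interval -0.80 to 0.08, limma adjusted p = 0.17) and the coding-end probe by -0.45 ± 0.21 (SE, limma adjusted p = 0.13 over the kept probes).

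Ppargc1b encodes PGC-1β, which coactivates ERRs in oxidative tissues. Its brightest probe read 9.15, 7.12 and 7.67 in Wild Type and 10.4, 6.61, 5.94 and 7.21 in Mutant (relative signals). Mutant_175 was the highest of all arrays and Mutant_187 the lowest, and the difference was -0.11 ± 0.21 (SE, 95% interval -0.59 to 0.38, limma adjusted p = 0.71). The dimmer probe, with 3.15, 2.10 and 2.64 against 3.04, 1.59, 1.13 and 1.73, differed by -0.56 ± 0.32 (SE, limma adjusted p = 0.20 over the kept probes).

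Nrip1, the corepressor, read 1.78, 1.43 and 1.56 in Wild Type and 2.08, 1.63, 1.35 and 1.54 in Mutant (relative signals, probe at chr16:76291555-76291614, mm9). The highest and the lowest values were both Mutant, from Mutant_175 and Mutant_187. The difference was 0.04 ± 0.17 (SE, 95% interval -0.36 to 0.43, limma adjusted p = 0.87), and 0.60 with spike-in scaling (limma adjusted p = 0.053). Its other 4 probes were dimmer, between 0.0741 and 0.525, and differed by -0.59 to -0.01 with none called.

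The ends of the order of the Mutant arrays were much the same across these genes. Mutant_175 was the highest Mutant array for 8 of the 10 genes, Ppard and Esrrb being the exceptions, and Mutant_187 was the lowest for 8 of the 10, Esrra and Ppard being the exceptions. For Smarca4 the ends were reversed, with Mutant_175 the lowest at 5.87 and Mutant_187 the highest at 14.9. A link between these orders was not tested. These are 4 arrays whose genes share the scaling of the array, and the order was seen after the values were known. The share of all genes with the same ends was not computed, so the order is not shown to be particular to these 10.

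**Figure D2:**
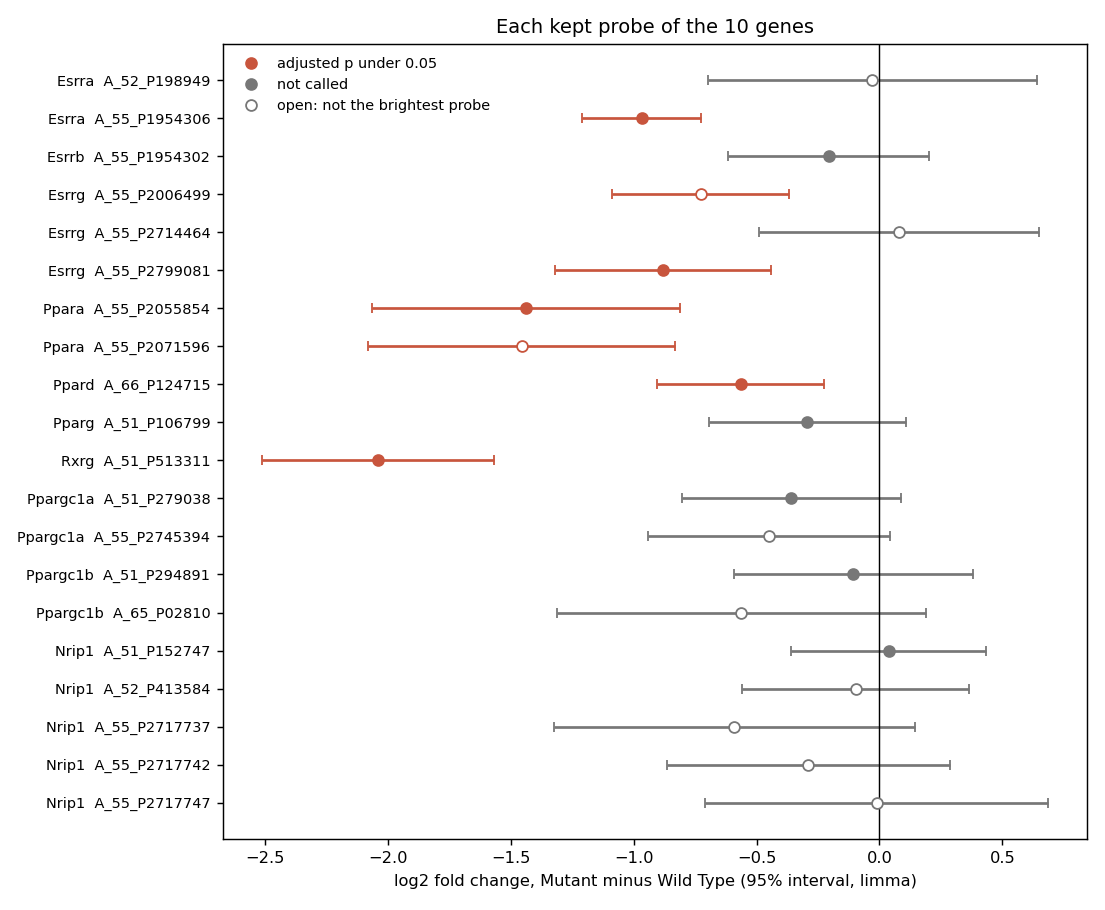
Log2 difference, Mutant minus Wild Type, with its 95% interval from limma, for each of the 20 probes above background on at least 3 arrays. Filled points mark the brightest probe of a gene and red points an adjusted p under 0.05 over the 34481 probes tested, which 7 of the 20 passed, all lower; with spike-in scaling the brightest Ppard probe is at 0.00.

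Probes of 1 gene were compared within each array, which removes the scaling between arrays. At probe level, 7 of the 20 tested probes were called lower (24% of all 34481 probes), with all Mutant arrays lower in the same 7 (29.6% of all probes), and none higher (16.5% of all), and none was higher at an unadjusted p under 0.05 in limma. In Ppara both probes fell alike: the brighter minus the dimmer was 1.05 in Wild Type and 1.07 in Mutant on the log2 scale, a change of 0.02 (exact two-sided permutation p = 0.83). In Esrrg the brightest pair changed by -0.15 (exact permutation p = 0.31). In Esrra the probes moved unequally by -0.94 (exact permutation p = 0.029, the smallest that 35 splits of the arrays allow), with every Mutant array lower. Adjusted over the 10 probe pairs this p was 0.19, and none of the 10 passed. The adjusted threshold can be reached only if several pairs have the smallest p together, so not passing says little of any single pair. The pair of Ppargc1b probes changed by 0.45 and that of Ppargc1a by 0.09, each higher in all Mutant arrays and each with an exact permutation p of 0.057 (adjusted 0.19).

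Members of 1 family were compared in the same way, by the log2 difference between their brightest probes on each array, whose change between groups does not depend on the scaling. For Esrra minus Esrrb it was 2.30, 2.34 and 2.54 in Wild Type and 1.82, 1.50, 1.92 and 1.28 in Mutant. All Mutant arrays were lower, so that Esrra lost 0.76 relative to Esrrb (exact two-sided permutation p = 0.029, adjusted over 7 pairs 0.10). For Ppara minus Pparg it was 2.20, 2.33 and 2.27 against 1.10, 1.46, 0.70 and 1.22, a change of -1.14 with all Mutant arrays lower (exact permutation p = 0.029, adjusted 0.10). Esrrg against Esrrb changed by -0.68 and Ppara against Ppard by -0.87, each lower in all Mutant arrays (exact permutation p = 0.057, adjusted 0.10 for both). Esrra against Esrrg changed by -0.09, Ppard against Pparg by -0.27 and Ppargc1a against Ppargc1b by -0.25, with overlapping groups. None of the 7 pairs passed after adjustment, and 0.029 is the smallest exact p that 3 against 4 arrays allow. Here too, passing would need several pairs at that smallest p, so the adjusted values cannot decide on a single pair.

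**Figure D3:**
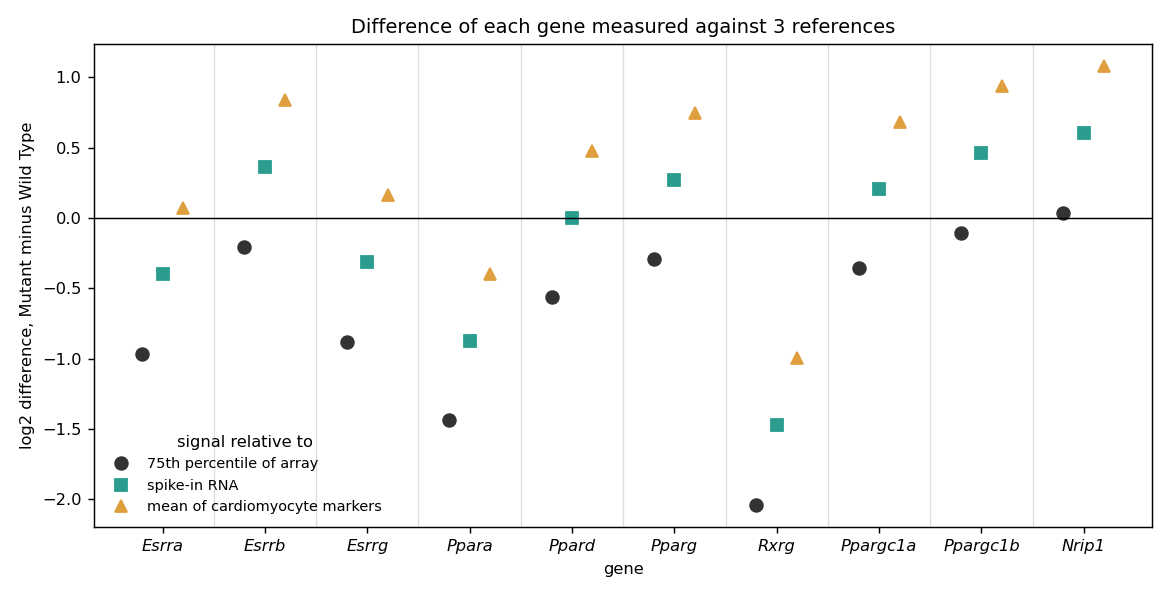
Log2 difference, Mutant minus Wild Type, of each of the 10 genes relative to the 75th percentile of the array (circles), to spike-in RNA (squares) and to the mean of 12 cardiomyocyte markers on the same array (triangles), without error bars. Rxrg and Ppara are below 0 on all 3, Esrra and Esrrg turn to 0.07 and 0.16 against the markers, Ppard is at 0.00 against spike-in RNA and 0.48 against the markers, and Nrip1 is at or above 0 on all 3.

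The levels were also set against the mean of 12 cardiomyocyte marker transcripts on the same array. These markers did not move alike: 9 were called lower, with Mybpc3 at -2.47, 1 was called higher (Nkx2-5 at 0.45) and 2 were not called, and their mean log2 level was 8.33 to 8.43 in Wild Type and 7.14 to 7.50 in Mutant. With spike-in scaling 5 of the 12 were lower. Whether the mean follows the number of muscle cells or the level of these transcripts per cell was not tested. Relative to that mean, Rxrg was -3.36, -3.50 and -3.39 in Wild Type and -4.04, -4.56, -4.61 and -4.44 in Mutant, a change of -0.997 (exact two-sided permutation p = 0.029, adjusted over the 10 genes 0.057). Ppara changed by -0.40 with all Mutant arrays lower (exact permutation p = 0.17, adjusted 0.21). Esrra changed by 0.07 (exact permutation p = 0.43) and Esrrg by 0.16 (exact permutation p = 0.37), with overlapping groups. The remaining 6 genes lay higher in all Mutant arrays relative to the markers, by 0.48 for Ppard, 0.68 for Ppargc1a, 0.75 for Pparg, 0.83 for Esrrb, 0.94 for Ppargc1b and 1.08 for Nrip1. The marker mean was itself lower in every Mutant array, so a gene that changed little rises against it. The share of all genes higher in this way was not computed, so the rise is not shown to be particular to these 6. None of the 10 passed after adjustment, and 5 had the smallest exact p of 0.029. More genes at that smallest p would be needed for any to pass, so the adjusted values cannot decide on a single gene.

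Most fibroblast and macrophage markers were higher in Mutant, while most endothelial and adipocyte markers were not called. Of all genes, 16.3% were called higher and 25.8% lower, and the endothelial and adipocyte counts below lie under these shares. Of 10 fibroblast markers 8 were called higher, among them Postn (4.37 ± 0.25, log2 difference and SE) and Col1a1 (3.14 ± 0.33), and their summed relative signal was 307 to 338 in Wild Type and 602 to 842 in Mutant. Macrophage markers were higher for 7 of 12, among them Mrc1 (1.41 ± 0.14) and C1qb (1.16 ± 0.18), with sums of 149 to 158 against 153 to 266, and 11 of the 12 were called higher without Mutant_175. Of 10 endothelial markers 1 was higher (Vwf, 1.14 ± 0.18) and 2 lower (Tie1, -0.54 ± 0.10, and Tek, -0.38 ± 0.11), which turned to 0.03 and 0.18 with spike-in scaling, with sums of 129 to 134 against 113 to 157. Cardiomyocyte markers summed to 6460 to 6984 against 2794 to 3689, with Mybpc3 at -2.47 ± 0.13 and Tnni3 at -2.21 ± 0.16. Of the 8 adipocyte markers measured, 1 was higher and 1 lower: Cidea, a lipid droplet protein, rose by 2.79 ± 0.24, and Lep, the gene of leptin, differed by -0.45 ± 0.10 (0.11 with spike-in scaling), while the others, including Adipoq (-0.22, or 0.34 with spike-in scaling) and Plin1 (0.06), were not called. Their sum was 170 to 182.2 against 218 to 372, of which Cidea alone gave 16.3 to 22.8 and 101 to 195. Such sums mostly follow the brightest probes of a list and are no measure of cell number. Fabp4, not called, gave 147 to 156 and 111 to 173 of the adipocyte sum. Dcn gave 227 to 241 and 283 to 338 of the fibroblast sum, both named here after their values were seen. The part of these shifts in the values of the 10 genes was not tested beyond the comparison with the cardiomyocyte markers. Every listed marker was well above background on at least 3 arrays except Ucp1.

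Genes downstream of the receptors were read from lists put together with earlier results of these data known. All 20 of 20 ERR and PGC-1 target genes were called lower, where 25.8% of all genes were, with a median of -0.86 against -0.12 over all genes. Leaving out 1 array gave 16 to 20 called lower. The 12 cardiomyocyte markers had a similar median of -0.79, with 9 called lower. With spike-in scaling 5 of the 20 targets were called lower and 19 of 20 were below 0, at a median of -0.29. That scaling called 7.44% of all genes lower and 37.2% higher. Fndc5, the precursor of irisin, differed by -3.05 ± 0.12 (log2 difference and SE, limma adjusted p = 1.1e-05). Ckmt2, the mitochondrial creatine kinase, differed by -2.26 ± 0.18, Sod2, the mitochondrial superoxide dismutase, by -1.67 ± 0.12, and Ogdh, a citric acid cycle dehydrogenase subunit, by -1.39 ± 0.10. Of 30 PPAR target genes 13 were called lower, 2 higher and 15 neither, with a median of -0.61, or 8 lower and 6 higher with spike-in scaling, and 20 lower and 2 higher without Mutant_175. Without Wild Type_181 none was called higher, and without Wild Type_183 or Wild Type_189 1 was. The thiolase Acaa2 (-2.63 ± 0.25), the carnitine palmitoyltransferase Cpt2 (-1.95 ± 0.22), the dienoyl-CoA isomerase Ech1 (-1.81 ± 0.17) and the carnitine transporter Slc22a5 (-1.12 ± 0.13) were the called genes with the smallest p. The 2 called higher were Cpt1a, the liver form of carnitine palmitoyltransferase 1 (0.75 ± 0.20), and the uncoupling protein Ucp3 (0.52 ± 0.15). Some genes often used as readouts of PPAR activity were among the 15 not called on this scale. Pdk4 differed by -0.28 ± 0.45, Angptl4 by 1.04 ± 0.64 and Cpt1b by -0.34 ± 0.19. Other targets, such as Acadm (-1.27, or -0.71 with spike-in scaling) and Fabp3 (-0.78, or -0.22), were among the 13 called lower. These genes are named here after their values were seen. Mutant_175 had the highest relative signal of all arrays for Pdk4 (155) and Cpt1b (40.4). With spike-in scaling Pdk4 and Cpt1b turned to 0.29 and 0.23, and Angptl4 was at 1.60 and was called higher (limma adjusted p = 0.048).

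**Figure D4:**
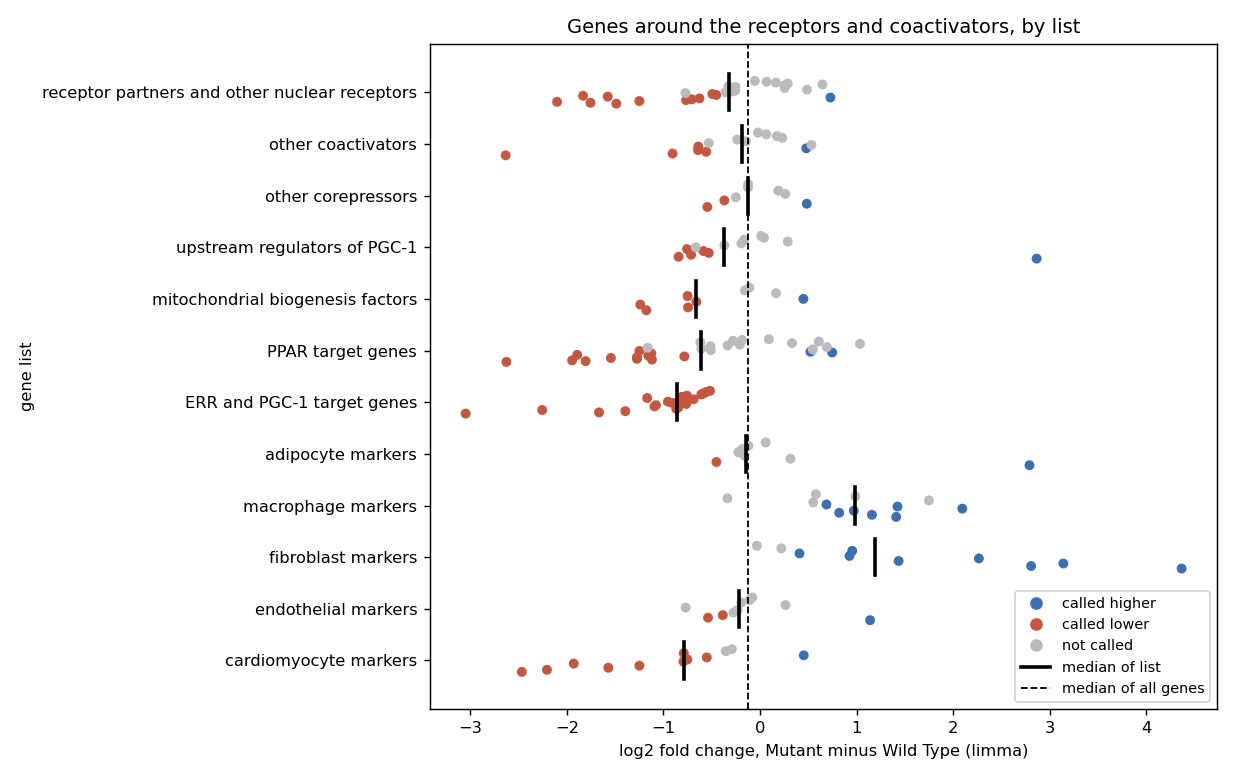
Log2 difference, Mutant minus Wild Type (limma, relative to the 75th percentile of the array), of each measured gene in 12 lists, with red for called lower, blue for called higher, black bars for the median of each list and a dashed line for the median of all 22971 genes at -0.12. All 20 ERR and PGC-1 targets are red, 8 of 10 fibroblast markers are blue, and the blue point among the upstream regulators, Camk4, was below background in Wild Type, so its place is not a measured size; spike-in scaling leaves 5 of the 20 targets called and moves the median of the PPAR targets from -0.61 to -0.05 and that of the cardiomyocyte markers from -0.79 to -0.22.

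Other regulators of the same pathway were mixed. Of 27 further nuclear receptors 11 were called lower and 1 higher (median -0.33), where 25.8% of all genes were lower and 16.3% higher. With spike-in scaling, which called 7.44% of all genes lower and 37.2% higher, 6 were lower and 6 higher. Nr1d2 (-1.76 ± 0.18), a receptor of the circadian clock, the retinoic acid receptor Rarb (-1.49 ± 0.14) and the mineralocorticoid receptor Nr3c2 (-1.25 ± 0.15) fell, whereas Rara was the 1 gene called higher (0.73 ± 0.14). Of 14 other coactivators 5 were lower and 1 higher, or 1 lower and 5 higher with spike-in scaling. Perm1, a muscle partner of PGC-1 and ERR, fell by 2.63 ± 0.23 on the log2 scale and was also called lower with spike-in scaling (-2.07). Lpin1 differed by -0.91 ± 0.17, Ncoa3 by -0.64 ± 0.14 and Crebbp by -0.56 ± 0.11. Spike-in scaling put these 3 at -0.34, -0.08 and 0.01, none called. Of 8 other corepressors 2 were lower (Ctbp1 at -0.55 ± 0.11 and Ncor1 at -0.37 ± 0.12) and 1 higher (Tbl1xr1 at 0.48 ± 0.13), and with spike-in scaling 0 were lower (limma, and 0 at an unadjusted p under 0.05) and 3 higher, with Ctbp1 at 0.02 and Ncor1 at 0.20. Of 9 mitochondrial biogenesis factors 5 were lower and 1 higher, with a median of -0.66, or 2 lower and 2 higher with a median of -0.09 with spike-in scaling. The mitochondrial transcription factors Tfb2m (-1.24 ± 0.18) and Tfb1m (-1.18 ± 0.10) fell on both scales, at -0.67 and -0.61 with spike-in scaling. Tfam (-0.66 ± 0.13) and the mitochondrial RNA polymerase Polrmt (-0.75 ± 0.10) were called lower relative to the 75th percentile only, and stood at -0.09 and -0.18 with spike-in scaling. Nrf1, a nuclear activator of these genes, was higher (0.45 ± 0.12, or 1.02 with spike-in scaling).

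Upstream of PGC-1, 5 of 13 genes were lower and 1 higher, where 25.8% and 16.3% of all genes were, or 0 lower (limma, and 0 at an unadjusted p under 0.05) and 3 higher with spike-in scaling. The kinase Mapk14 (-0.84 ± 0.11), the calcineurin subunit Ppp3cb (-0.71 ± 0.12) and the lysosomal factor Tfeb (-0.53 ± 0.11) were called lower relative to the 75th percentile, and with spike-in scaling stood at -0.28, -0.15 and 0.04. Camk4, a calcium-dependent kinase, was the 1 gene called higher relative to the 75th percentile. It stayed at background in all Wild Type arrays and was well above it on 3 of 4 Mutant arrays. It thus passed the filter of 3 arrays through the Mutant group alone, and its call is no separate evidence of a difference. With Wild Type bounded by the dimmest probes above background, the mean of the 4 Mutant arrays was at least 2.04-fold higher.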

How the data were processed

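Per the file headers and the labels' protocols, total RNA labelled with Cy3 was hybridised to 7 one-colour arrays (3 Wild Type, 4 Mutant) and scanned; the authors extracted the signals with Agilent Feature Extraction version 10.7.3.1 and deposited spot intensities and quality flags; the other deposited columns used are those flags, probe names and mm9 positions. The deposited value table held the same processed intensity values, with at least 99.5% of probes within 0.01 log2 of the scanner files, not scaled between arrays (column medians 45.6 to 82.6). Outlier spots were left out, spots of a probe were averaged, and log2 intensity minus the 75th percentile of each array was kept where a probe passed the well-above-background flag in 3 or more arrays (34481 probes). Symbols were updated by accession through RefSeq (1535 probes renamed). Each of 22971 genes took its brightest kept probe. R 4.3.3 and limma 3.58.1 (lmFit, eBayes) compared the groups, with Benjamini-Hochberg adjustment and a threshold of 0.05. Differences within an array were tested by exact two-sided permutation over 35 splits. A microarray's precision is limited by the number of arrays, and no counting depth applies. The limma procedure was run on simulated data with known changes in a small part of the genes, which does not check the scaling of arrays. The genes named are all 10 members, Smarca4, and up to 4 called genes of smallest p in each list, and, named after their values were seen, Smarca2, Nkx2-5, Rara, Nrf1, Cpt1a, Ucp3, Adipoq, Plin1 and those marked in the text; a gene this rule selects is not reported here. The members and lists were chosen with earlier results of these data known. The comparison with cardiomyocyte markers was added after seeing the data. Other samples mentioned in the series' design text were not analysed here. No series value column was unused (0 columns).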

Additional observations from a re-analysis of the deposited data

Results flagged for a closer look

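In the Mutant group, Mutant_175 stood apart for the Esrrg probe at chr1:190038192-190038251 (mm9). Its relative signal was 2.48, and the other 3 Mutant arrays lay between 1.75 and 1.76. On the log2 scale the gap to the nearest array was 0.988 of the range of the group, above the 95% limit of Dixon's test for 4 arrays. It was the only 1 of the 20 member probes tested in this way to pass, and chance alone gives about 1 in 20. For the neighbouring Esrrg probe Mutant_175 was also the highest Mutant array, at 5.44 against 3.101 to 4.37.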

How the results depend on the processing

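No paired analysis was possible because the labels number every array differently and no number is shared between the groups. With spike-in scaling 8538 genes were called higher and 1710 lower (83.3% of calls higher, against 38.7%), 13238 probes higher and 2380 lower, and 2 members lower, with Ppard turned to 0.001. Against the cardiomyocyte markers, Esrra turned to 0.074, Esrrg to 0.16 and Ppard to 0.48, by exact permutation none past the adjusted threshold. Quantile, median, well-above-background percentile, normexp and value-table scaling, both filters and the trended prior each called 5 members lower and none higher (limma), the mean over probes 4 and array weights 6. Leaving out 1 array gave 4 to 6 members, 3804 to 6788 genes lower, 9272 to 16159 probes called and 5257 to 9431 probes lower. The lowest gene and probe counts came without Wild Type_183; without Wild Type_189, 3882 genes and 5320 probes were lower. Without Mutant_175, Pparg joined the called genes (limma adjusted p = 0.029), as with array weights (0.039), and Ppard was lost without each Wild Type array. With 1 array left out, the difference between probes ranged from -1.26 to -0.66 for Esrra and from -0.031 to 0.079 for Ppara. It ranged from 0.054 to 0.11 for Ppargc1a and from 0.35 to 0.55 for Ppargc1b. For a pair of Nrip1 comparisons it ranged from 0.075 to 0.21 and from 0.38 to 0.99. The cause of the shifts between settings was not tested. Dim probes of Esrrg, Esrra and Nrip1 limit what their differences can show.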
